A study of Oryza sativa Japonica Group with 20 samples.

Results

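EMF2b peaks and H3K27me3 domains were compared in root tips of plt345 rice, from 2 EMF2b and 2 H3K27me3 libraries, 4 of the 20 samples of the series. An EMF2b site was a stretch of merged EMF2b peaks touched by a peak of both libraries, and an H3K27me3 domain was defined in the same way. By this rule 13281 of 19678 merged EMF2b peaks (67.5%) were sites and 17826 of 22958 merged H3K27me3 peaks (77.6%) were domains. WT had 12612 sites and 21044 domains.

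All libraries were made by CUT&Tag, in which a transposase directed by an antibody cuts and tags chromatin, from root tips of about 0.8 cm of seedlings 7 days old. The groups were plt345, a triple mutant of PLT3, PLT4 and PLT5, and WT, plants of cultivar ZH11. PLT3, PLT4 and PLT5 are named for the PLETHORA family of transcription factors, which act in root meristems. Peak lists of 14 samples were used, among them H3K4me3 in both genotypes and PLT5 in WT, with 2 libraries per group; the other 6 samples, IgG in both genotypes and PLT5 in plt345, were not analysed here. A whole root tip mixes many cell types, so 2 marks at one place need not share a cell, and fewer marked cells and less mark per cell cannot be told apart.

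Polycomb repressive complex 2 (PRC2) is the enzyme complex that methylates lysine 27 of histone H3, and H3K27me3 keeps developmental genes silent in plants as in animals. EMF2b is the rice relative of Arabidopsis EMBRYONIC FLOWER 2, a zinc-finger subunit of PRC2 of the Su(z)12 type. In Arabidopsis, PRC2 is placed at short sequence elements and the mark then spreads along the gene, so the enzyme and its product need not cover the same bases. H3K4me3 marks the starts of active genes.

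The plt345 EMF2b lists held 15342 and 17891 peaks, against 15486 and 14851 in WT, and the plt345 H3K27me3 lists 20841 and 20942, against 23957 and 24185 in WT. The median −log10 q of H3K27me3 peaks, as the authors' peak caller gave it, was 2.73 and 2.59 in plt345 and 3.34 and 3.36 in WT, so the H3K27me3 calls of plt345 were fewer and lay nearer the calling threshold. EMF2b peaks had a median width of 430 and 451 bp in plt345 and of 564 and 544 bp in WT. The shortest EMF2b peak was 247 and 249 bp in plt345 and 290 and 285 bp in WT, so the lower limit of width also differed between the lists. The part of peak-calling settings in these widths, and in comparisons with WT that depend on width, was not tested. In plt345, 87.8% and 74.7% of the EMF2b peaks of replicates 1 and 2 were touched by a peak of the other replicate. Read depth is unknown, since the lists carry no counts, and no source used here names the genome build of the lists. Places are therefore given by the lists' own positions, counted from 1, without gene names or sequence.

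Most H3K27me3 domains of plt345 held no EMF2b site. Of 17826 domains, 4058 (22.8%; 95% Wilson interval 22.2 to 23.4%, counting error only) had at least 1 site. There were 13768 domains with 0 sites, which is 77.2%, and 3893 with 1 site, which is 21.8%. Another 165 domains (0.926%) had 2 or more sites, and 1 of these had 3. No peak of either EMF2b library touched 12541 domains (70.4%), and 1224 domains had a peak of 1 library only. Taken one at a time, EMF2b libraries 1 and 2 had peaks on 24.5% and 27.9% of the domains. Sites covered 8.52% of the 29.7 Mb of domains, and 8.29 Mb in all. No genome length was used here, so the share of the genome under sites is not set beside this.

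The share of domains with a site was highest in the narrowest domains and was lower in wider ones up to 3000 bp. Each width class starts at its lower bound and ends before its upper bound. At under 500 bp, 212 of 608 domains (34.9%) had a site, and at 500 to 1000 bp 1355 of 4600 (29.5%). The share was 20.2% of 6970 domains of 1000 to 2000 bp, 18.5% of 3913 domains of 2000 to 3000 bp and 20.6% of 1708 domains of 3000 to 5000 bp. It was 8 of 27, or 29.6%, at 5000 bp or more, with a Wilson interval of 15.9 to 48.5% that takes in the shares of all other classes. A long domain offers more bases for a site to touch, yet the number of sites per kb was lower in each wider class up to 5000 bp. It was 0.817 at under 500 bp, 0.391 at 500 to 1000 bp, 0.144 at 1000 to 2000 bp, 0.0824 at 2000 to 3000 bp, 0.0637 at 3000 to 5000 bp and 0.0743 at 5000 bp or more. The density at 5000 bp or more was 0.177 times that in all domains under 1000 bp. It was 0.0690 times without plt345 H3K27me3 replicate 1 and 0.205 times without replicate 2, below 1 in each case. Leaving out a replicate redraws all domains, since every peak of the remaining list then counts as one. A site touches a narrow domain also when most of it lies beside the domain, which raises the count per kb there. By the share of bases under a site the classes kept the same order to 5000 bp, with 32.2% of bases at under 500 bp, 21.8% at 500 to 1000 bp and 4.04% at 3000 to 5000 bp, but with 9.79% at 5000 bp or more.

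**Figure D1:**
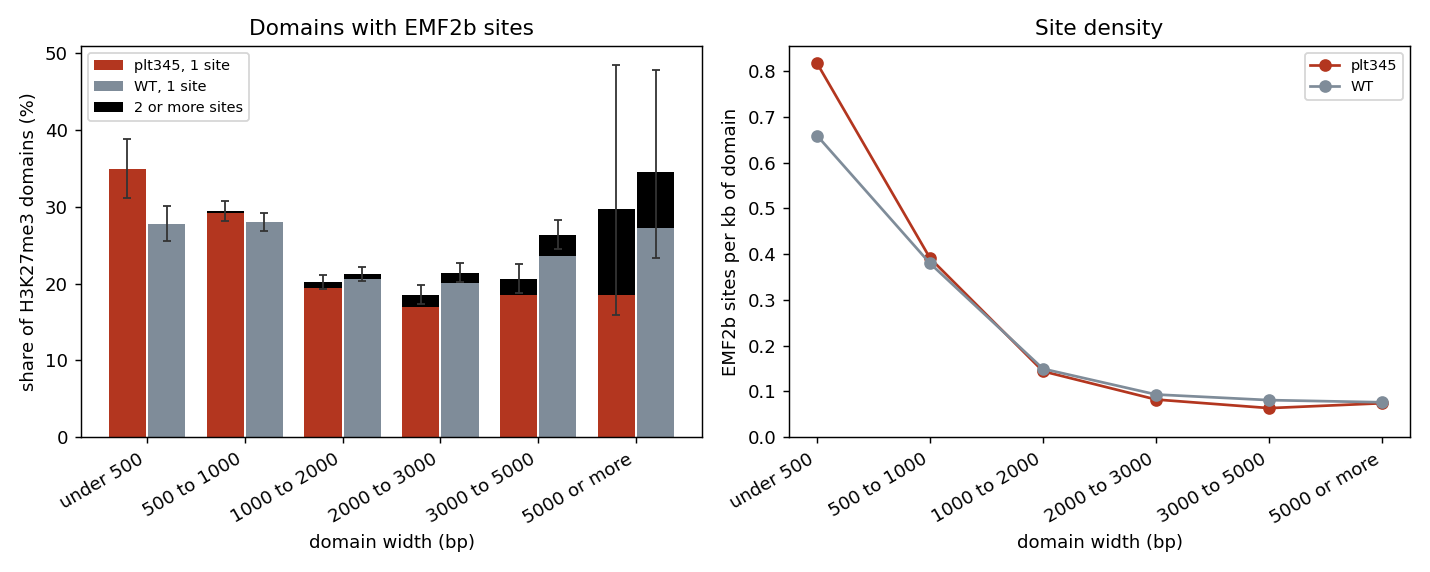
Left, the share of H3K27me3 domains (%) with 1 (coloured) and with 2 or more (black) EMF2b sites by domain width in bp, plt345 left of WT, with 95% Wilson intervals for any site; right, EMF2b sites per kb of domain. In plt345 the share with a site is 34.9% under 500 bp and 18.5% at 2000 to 3000 bp, and the density falls from the narrowest class to the class of 3000 to 5000 bp in both genotypes.

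The share of domains with 2 or more sites rose with domain width. None of the 608 domains under 500 bp had 2, and the share was 0.239% at 500 to 1000 bp, 0.803% at 1000 to 2000 bp, 1.56% at 2000 to 3000 bp, 1.99% at 3000 to 5000 bp and 11.1% (3 of 27) at 5000 bp or more. A long domain has more room for 2 sites. The classes of 1000 to 2000, 2000 to 3000 and 3000 to 5000 bp held 56, 61 and 34 of the 165 domains. They held 34.3%, 32.2% and 20.4% of the length of all domains, and the part of length in the rise was not tested. The median width was 2221 bp for domains with 2 or more sites, 1199 bp for those with 1 and 1535 bp for those with 0. In the 165 domains the gap between neighbouring sites had a median of 498.5 bp, and the longest was 5667 bp. In 144 of them (87.3%) sites lay on both sides of the domain's centre. Separate sites take up much of a domain of this width, so some of this share follows from geometry. How much was not tested. The number of such domains depended on how sites were defined: their share was 1.98% with the peaks of EMF2b replicate 2 alone and 1.62% with those of replicate 1 alone, and 0.438% with the weakest 25% of EMF2b peaks left out of each list.

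The single domain with 3 sites lay on chromosome 1 from 26158502 to 26161022, 2521 bp wide. Its sites were centred at 12.2%, 49.4% and 94.2% of its length. The authors' −log10 q in EMF2b replicates 1 and 2 was 10.7 and 10.5 at the first site, 5.99 and 8.31 at the middle one and 5.45 and 7.86 at the last. Each of the 3 sites lay over H3K4me3 peaks, which are shown for both libraries in the maps of single regions.

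The widest domain, on chromosome 8 from 2239443 to 2246010 (6568 bp), had a site near each end and none between. The sites were centred at 2.14% and 95.4% of its length, with −log10 q of 22.5 and 20.7 at the first and 5.84 and 6.68 at the last. No single H3K27me3 peak spanned this domain, since each library gave 2 peaks with a gap at a different place, and merging joined them. Such joining was rare among narrow domains and frequent among the longest: 94.6% of all domains were made of 1 peak from each library, but 73.7% of those of 3000 to 5000 bp and 14 of 27 (51.9%) of those of 5000 bp or more were. In each class from 1000 bp up, joined domains had a site more often than the others, at 25.6% against 18.8% at 3000 to 5000 bp. The part of joining in the shares by width was not tested. The other 5 of the 6 widest domains, 5842 to 6428 bp wide, had no site. Among the 6 widest domains without a peak of either EMF2b library, 5555 to 6428 bp wide, 1 carried H3K4me3 of both libraries, 1 had an EMF2b site in WT and none had a WT PLT5 site. The H3K27me3 folds of the 5 without a site among the 6 widest were 1.54 to 1.79, and those of the widest domain 1.58 and 1.61. All lay below the median fold, over all widths, of domains with a site (2.38) and without one (2.22). Folds were low in the whole class of 5000 bp or more, with medians of 1.81 with a site and 1.73 without.

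**Figure D2:**
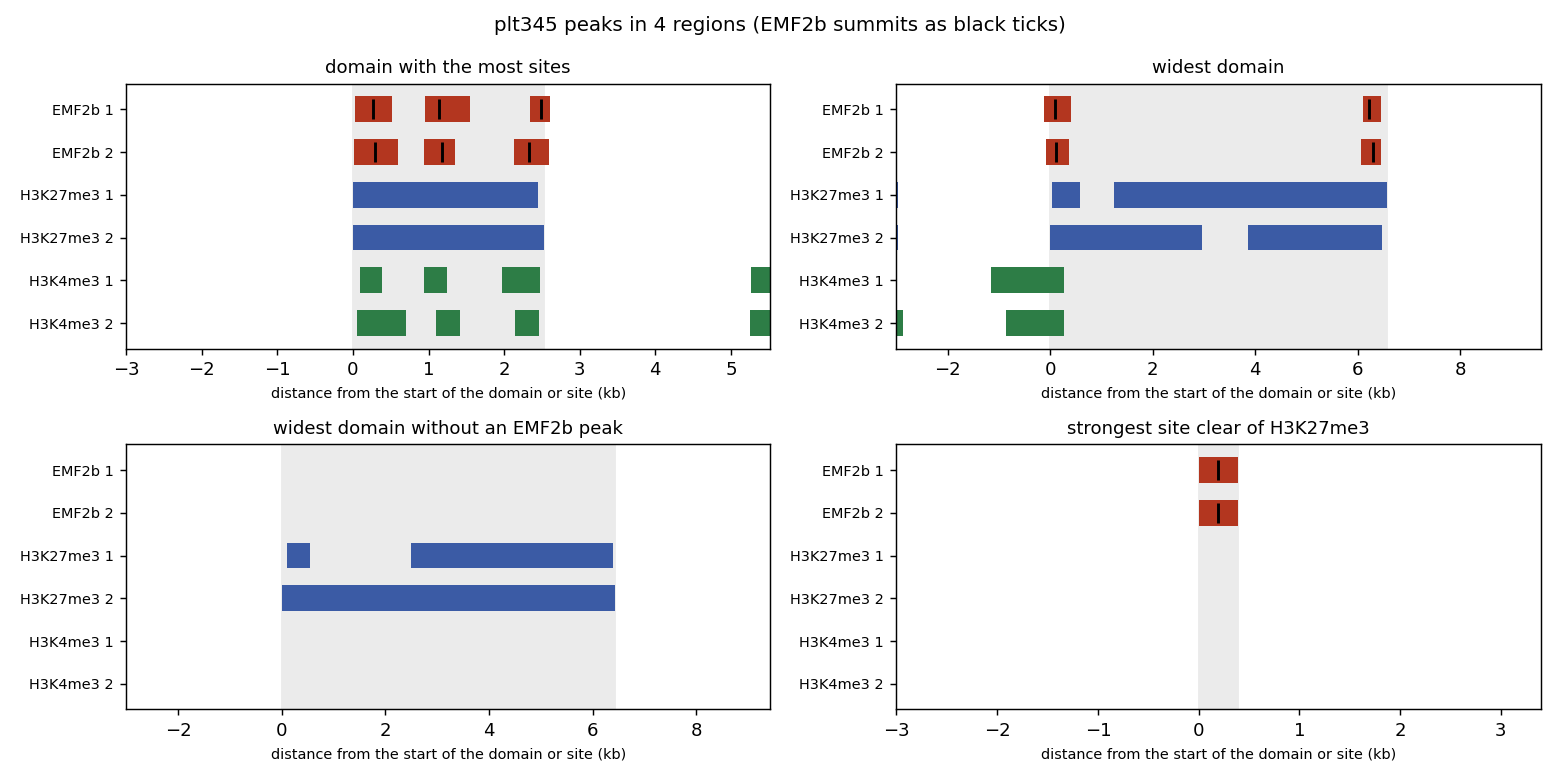
Peaks of the 6 plt345 libraries (rows) along 4 regions, with distance from the start of the shaded domain or site in kb and EMF2b summits as black ticks. The domain of 2521 bp has 3 EMF2b sites over 3 H3K4me3 peaks, the widest domain has sites near its ends, the domain of 6428 bp on chromosome 2 has none, and the strongest site clear of H3K27me3 stands alone.

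EMF2b sites were more frequent on domains that also carried H3K4me3 than on the rest. Peaks of both plt345 H3K4me3 libraries touched 3670 of 17826 domains (20.6%). A site was present in 2182 of these 3670 domains (59.5%, interval 57.9 to 61.0%) and in 1876 of the other 14156 (13.3%, interval 12.7 to 13.8%). Domains touched by 1 H3K4me3 library lay between, at 39.5%, and those touched by neither had a site in 11.6%. The order was the same in each EMF2b library, with a peak on 62.0% and 66.9% of H3K4me3 domains and on 14.8% and 17.8% of the others in replicates 1 and 2. It was also the same in every width class, from 80.6% against 16.4% at under 500 bp to 55.3% against 12.3% at 3000 to 5000 bp. WT domains gave 59.4% with H3K4me3 and 14.1% without. Seen from the other side, H3K4me3 was on 53.8% of domains with a site and on 10.8% of domains without one.

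In domains that held summits of both, the distance from an EMF2b summit to the nearest H3K4me3 summit had a median of 171 bp in replicate 1 and 186 bp in replicate 2. The width of a domain bounds this distance. In domains under 1000 bp, with a median width of 708 and 707 bp, the median distance was 94.5 and 95 bp. In domains of 2000 bp or more, with a median width of 2699 and 2721 bp, it was 282.5 and 313 bp, and 68.9% and 65.0% of EMF2b summits had an H3K4me3 summit within 500 bp.

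WT PLT5 sites, which are merged peaks of both WT PLT5 libraries, were also more frequent on domains with an EMF2b site. Of 3135 plt345 domains with a WT PLT5 site 2489 (79.4%) had an EMF2b site, against 1569 of 14691 (10.7%) without. With both H3K4me3 and a WT PLT5 site, 1634 of 1895 domains (86.2%) had an EMF2b site. With no WT PLT5 site and no H3K4me3 peak of either library, 904 of 12345 (7.32%) had one. The IgG samples, made to show background common to all antibodies, were not analysed here, and the part of such background in these overlaps was not tested.

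The H3K27me3 fold of domains went with EMF2b up to a point. When domains were ranked by their H3K27me3 fold over background and put in 10 equal groups, the share with a site was 10.2% in the lowest group, 25.3% in the fifth, 31.8% in the eighth and 26.6% in the highest. H3K4me3 also became more frequent along this order, from 8.24% of domains in the lowest group to 27.6% in the highest. Among domains with H3K4me3 the share with a site was 44.9% in the lowest and 67.5% in the highest group. Among the rest it was 7.09% in the lowest, 18.1% in the eighth and 11% in the highest. The −log10 q of H3K27me3 did not follow the fold in this. Its median was 2.86 for domains with a site and 2.91 for those without. At under 500 bp it was higher with a site, at 2.65 against 2.17, and so it was at 500 to 1000 bp. In each class from 1000 bp up it was slightly lower with a site.

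**Figure D3:**
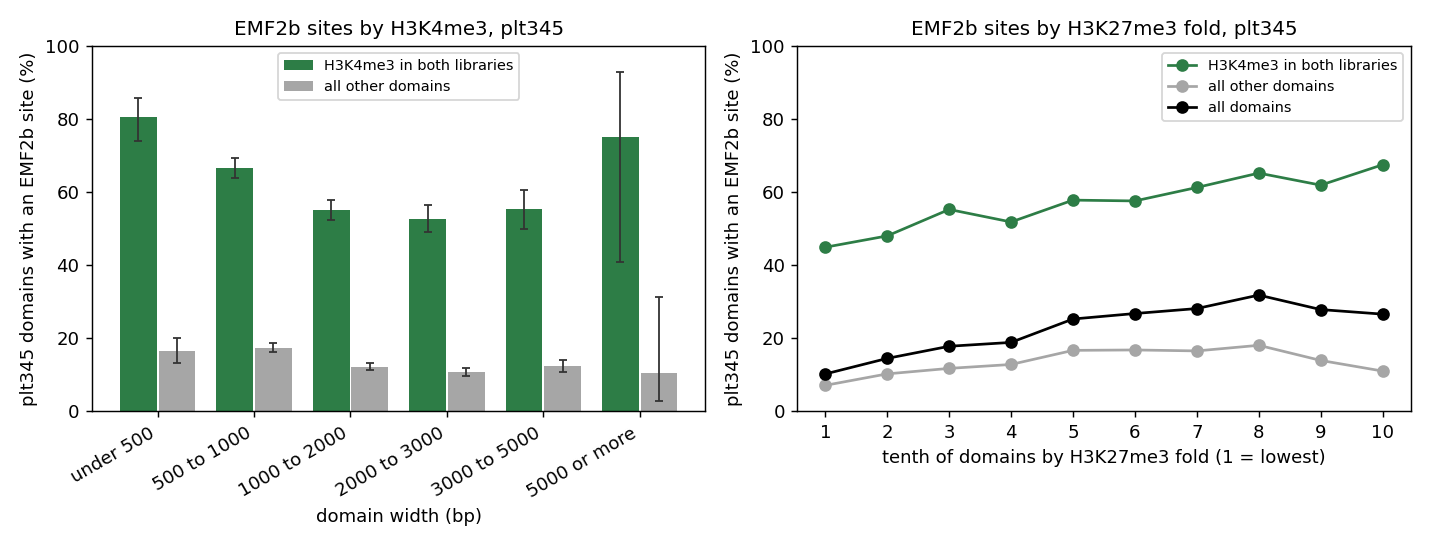
Share of plt345 H3K27me3 domains with an EMF2b site (%), left by domain width in bp for domains with H3K4me3 peaks of both libraries (green) and all other domains (grey), with 95% Wilson intervals, and right by 10 equal groups of H3K27me3 fold. Green lies above grey in every width class, and the share over all domains is 10.2% in the lowest and 31.8% in the eighth fold group.

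EMF2b summits lay near the centre of narrow domains and near the edges of wide ones. A summit is the base at which the authors' caller found the highest signal of a peak, and 4333 summits of EMF2b replicate 1 (28.2%) and 4949 of replicate 2 (27.7%) fell in domains. Over all widths 48.0% and 48.2% of them fell in the central 50% of a domain's length, close to the share of bases there. This average hid opposite patterns. In domains under 500 bp the central 50% held 70.5% and 78.0% of summits, and in those of 500 to 1000 bp 60.8% and 62.1%. At 1000 to 2000 bp it held 49.0% and 46.8%. At 2000 to 3000 bp it held 30.01% and 31.6%, and at 3000 to 5000 bp 29.3% and 31.6%. The 2 replicates gave the same order from narrow to wide up to 3000 bp.

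The outer 10% at each end, together 20% of the bases, gave the reverse picture. They held 10.0% and 10.6% of summits at 500 to 1000 bp, 16.5% and 18.6% at 1000 to 2000 bp, 32.1% and 32.1% at 2000 to 3000 bp and 41.2% and 41.4% at 3000 to 5000 bp. In all domains of 2000 bp or more the share was 35.4% of 1263 summits in replicate 1 (interval 32.8 to 38.1%) and 35.5% of 1495 in replicate 2 (33.1 to 37.9%). Domains of 5000 bp or more held only 10 and 13 summits, of which 7 and 8 lay in the outer parts.

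In base pairs the distance from a summit to the nearer edge changed less than domain width did. The median domain was 434.5 bp wide in the class under 500 bp and 3414.5 bp at 3000 to 5000 bp. The median distance was 142 and 148.5 bp in domains under 500 bp, 216 and 215 bp at 500 to 1000 bp, 337 and 330 bp at 1000 to 2000 bp, 397 and 413 bp at 2000 to 3000 bp and 456.5 and 470 bp at 3000 to 5000 bp. By position along the chromosome, 50.03% and 49.99% of summits lay left of the centre. Domains were not oriented by the direction of genes, so these shares cannot show whether summits favoured either end of genes. In domains of 2000 bp or more the median −log10 q was 10.7 and 11.4 for summits in the outer parts. It was 9.95 and 9.88 for inner summits, those at least 0.3 of the domain's length from both ends. Summits between the outer and inner parts entered neither value. H3K4me3 of both libraries was at 36.2% and 35.5% of outer summits of domains of 2000 bp or more, and at 28.1% and 26.7% of inner summits there.

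**Figure D4:**
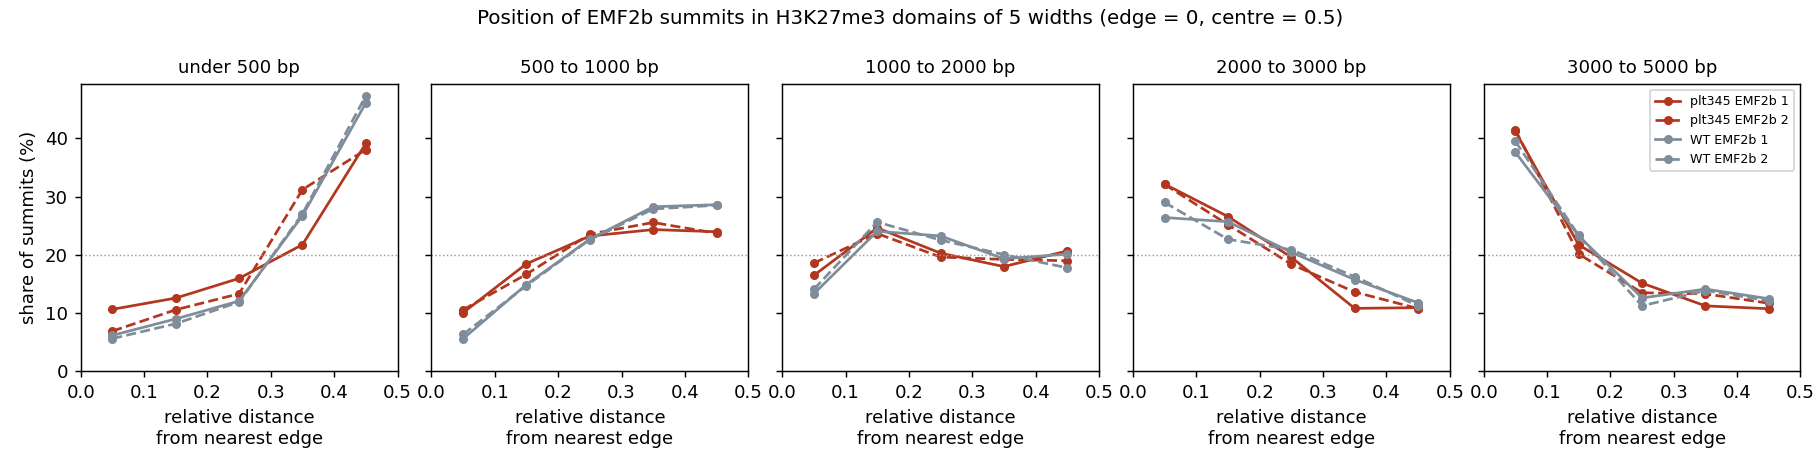
Share of EMF2b summits (%) in 5 equal bins from the edge (0) to the centre (0.5) of H3K27me3 domains, in panels of rising domain width, for 2 plt345 (red) and 2 WT (grey) EMF2b libraries; the dotted line is the 20% that each bin holds of the bases. Summits pile up at the centre of domains under 1000 bp and at the edge of domains of 3000 to 5000 bp, where the outermost bin has 41.2% and 41.4% in plt345.

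The outlines of sites and domains matched only in part. Of 4224 pairs of a site and the domain it touched, 39.2% had the site within the domain, 49.5% had it across an edge and 11.3% had it over the whole domain. Covering was the usual case for the narrowest domains, at 62.3% of pairs under 500 bp, and was met in 2 pairs of 2000 bp or more. At 3000 to 5000 bp, 55.1% of pairs had the site within and 44.7% across an edge.

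Most EMF2b sites lay outside H3K27me3 domains. Of 13281 sites, 4223 (31.8%; interval 31.0 to 32.6%) touched a domain and 9058 (68.2%) did not. Domains covered 29.7 Mb, and 30.5% of the bases of sites lay on them. No genome length was used here, so the share that length alone would give is not known. A majority of sites outside domains therefore does not show that EMF2b avoided them. The share on a domain was 22.8% when the weakest 25% of H3K27me3 peaks were left out of each list and 36.3% when the peaks of either H3K27me3 library alone were counted as domains. Among the 9058 sites outside, 7693 (84.9%) touched no H3K27me3 peak of either library, and 1365 touched a peak of 1 library. The median gap to the nearest domain was 13.4 kb, and the longest 359 kb. Of the outside sites 4.08% lay under 1 kb from a domain, with 21.5% at 1 to 5 kb, 37.6% at 5 to 20 kb, 26.8% at 20 to 50 kb and 10.0% at 50 kb or more. These gaps were not set against those of random places.

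Sites inside and outside domains carried H3K4me3 about equally often. Over all sites 49.8% were touched by peaks of both H3K4me3 libraries, against 50.9% in WT. The share was 50.4% of sites inside (interval 48.9 to 51.9%) and 49.5% of sites outside (48.5 to 50.5%), a difference of −0.87 percentage points (outside minus inside). It was −0.11 points without EMF2b replicate 1, −1.76 points without H3K27me3 replicate 2 and −2.35 with the weakest 25% of H3K27me3 peaks left out. WT PLT5 sites, which lay at 49.9% of all sites, were at 59.7% of sites inside and at 45.4% outside. A site was also found in WT at 72.9% of sites inside and at 63.4% outside. The part of site strength in these shares was not tested. Neither a WT PLT5 site nor any H3K4me3 peak was found at 25.01% of sites inside and 29.9% outside. Among outside sites, H3K4me3 was at 38.1% of those under 1 kb from a domain and at 53.6% of those at 50 kb or more.

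Wider and stronger EMF2b sites lay on domains more often. By width the share on a domain was 19.9% of 2373 sites under 400 bp, 27.3% at 400 to 600 bp, 35.8% at 600 to 800 bp, 43.2% at 800 to 1000 bp, 48.5% at 1000 to 1500 bp and 60.3% at 1500 to 2000 bp. A wide site has more bases with which to touch a domain. Of the 24 sites of 2000 bp or more, 22 lay on a domain and all 24 on a WT PLT5 site. The exceptions, named after their values were seen, were on chromosome 6 from 7963584 to 7965697 and on chromosome 3 from 6756287 to 6758398, 43.5 and 14.5 kb from a domain. By strength, taken as the mean over replicates of the highest −log10 q, the share on a domain was 25.4% in the weakest of 10 equal groups of sites and 44.2% in the strongest. H3K4me3 was at 25.9% of the weakest and 79.9% of the strongest group, and a WT PLT5 site at 25.1% and 89.5%. Of the 100 strongest sites 66 were on a domain, 74 carried H3K4me3 of both libraries, and all 100 were on a WT EMF2b site and a WT PLT5 site.

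**Figure D5:**
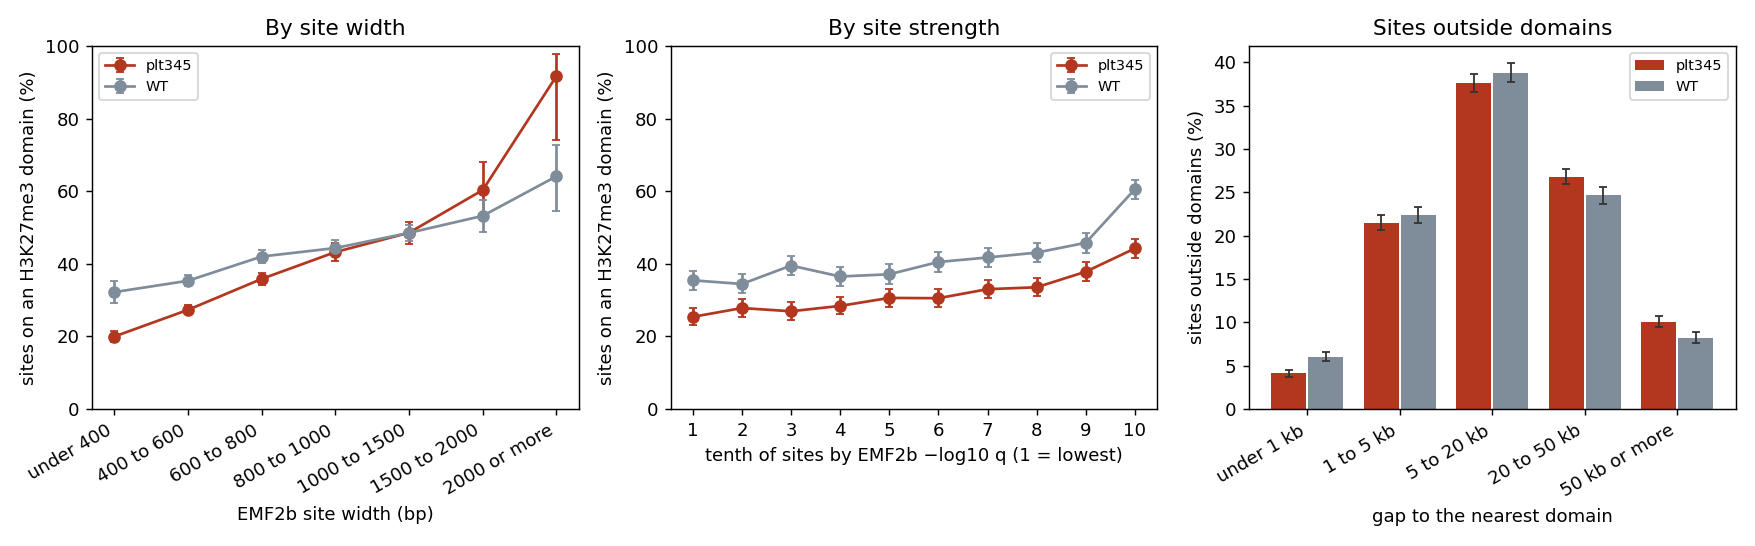
Share of EMF2b sites on an H3K27me3 domain (%) by site width in bp (left) and by 10 equal groups of site strength, the mean −log10 q (middle), and gaps of outside sites to the nearest domain (right, % of outside sites), for plt345 (red) and WT (grey) with 95% Wilson intervals. In plt345 the share on a domain is 19.9% under 400 bp and 60.3% at 1500 to 2000 bp, and 25.4% in the weakest and 44.2% in the strongest group.

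Of the 6 strongest sites on domains, 5 sat on a domain of nearly their own size. The strongest of all lay on chromosome 8 from 12797742 to 12798208 (467 bp), with −log10 q of 146.8 and 165.6 and a fold over background of 26.1 and 25.5, on a domain of 402 bp. The second lay on chromosome 4 from 12545810 to 12546418 (609 bp), with −log10 q of 127.3 and 133.7, on a domain of 1308 bp. The other 4 of the 6 strongest were all on chromosome 12. The third, from 13349201 to 13349879, lay on a domain of 596 bp and had a mean −log10 q of 129.2 ± 0.816 (SD, n = 2). All 6 lay on a WT PLT5 site, a WT EMF2b site and a WT domain, and 5 had H3K4me3 of both plt345 libraries; the exception, on chromosome 12 from 21599993 to 21600409, had it in 1.

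Of the 6 strongest sites clear of every plt345 H3K27me3 peak, 4 had no H3K4me3 peak. The first lay on chromosome 12 from 13342283 to 13342677 (395 bp), with −log10 q of 100.2 and 126.3 and folds of 25.9 and 27.2, 6.55 kb from the nearest domain and without an H3K4me3 peak. The second, on chromosome 1 from 7917371 to 7917847 (477 bp), had −log10 q of 111.5 and 92.1, H3K4me3 of both libraries and a domain 0.764 kb away. The other 4 were 372 to 425 bp wide and 0.943 to 22.3 kb from a domain, and 3 of them had no H3K4me3 peak. All 6 lay on a domain of WT as well as on a WT EMF2b site and a WT PLT5 site. That was not the rule for clear sites as a whole: of the 7693 clear sites 764 (9.93%) lay on a WT domain, against 33 of the 100 strongest (interval 24.6 to 42.7%), a count added after the 6 had been seen. Among those 100, 56 were clear of WT H3K27me3 peaks too. The 6 were not typical of strong clear sites in H3K4me3 or width: of the 100 strongest, 75 carried H3K4me3 of both libraries, against 49.1% of all clear sites, and their median width was 623.5 bp, against 517 bp for all.

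Domains and sites of plt345 were set beside those of WT to show where the mutant differed, with 1 value per EMF2b library and an exact two-sided permutation test. With 2 against 2 libraries this test cannot give a p below 0.333, so no difference could pass 0.05. EMF2b peaks on a domain were 30.4% and 29.8% in plt345 and 39.4% and 39.7% in WT. The means were 30.1 ± 0.446% in plt345 and 39.6 ± 0.226% in WT (SD, n = 2 each; plt345 minus WT −9.46 percentage points, exact p = 0.333), and the groups did not overlap. The size of this difference depended on how many H3K27me3 peaks entered. It was −3.65 points when every H3K27me3 list was held to its 20841 strongest peaks, an alternative chosen after seeing the data, and −5.59 and −5.55 points without plt345 H3K27me3 replicates 1 and 2, when all peaks of the remaining list count as domains. Over all sites 31.8% were on a domain in plt345 and 41.4% in WT. A plt345 site on a plt345 domain was on a WT domain in 92.3% of cases, and 1486 of the 9058 plt345 sites outside domains (16.4%) were on a WT domain.

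The share of domains with an EMF2b peak overlapped between the genotypes. It was 24.5% and 27.9% in plt345 and 27.7% and 26.7% in WT, or 26.2 ± 2.36% in plt345 and 27.2 ± 0.696% in WT (SD, n = 2 each; difference −0.96 points, exact p = 1). Without plt345 EMF2b replicate 1 the sign turned, to 0.71 points. With every EMF2b list held to its 14851 strongest peaks the difference was −2.59 points and the groups no longer overlapped (exact p = 0.333, the smallest possible), and without plt345 EMF2b replicate 2 it was −2.63 points. By sites, 22.8% of domains in plt345 and 24.1% in WT had at least 1, and 0.926% in plt345 and 0.756% in WT had 2 or more.

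Summits fell in the central 50% of domains less often in plt345, at 48.0% and 48.2% against 53.1% and 53.2% in WT (difference −5.02 points, exact p = 0.333, no overlap). The values were 70.5% and 78.0% in plt345 and 78.3% and 80.4% in WT at under 500 bp, and 60.8% and 62.1% in plt345 and 68.8% and 68.9% in WT at 500 to 1000 bp. At 1000 to 2000 bp they were 48.98% and 46.8% in plt345 and 50.5% and 49.2% in WT, nearly touching. At 2000 to 3000 bp they were 30.01% and 31.6% in plt345 and 37.3% and 37.9% in WT. At 3000 to 5000 bp the groups overlapped, at 29.3% and 31.6% in plt345 and 32.4% and 31.2% in WT. Summits in the outer 10% at each end of domains of 2000 bp or more were 35.4% and 35.5% in plt345 and 30.8% and 33.2% in WT (3.39 points, exact p = 0.333). The widths of EMF2b peaks given above and of domains (median 1472 bp in plt345, against 1362 bp for WT domains) moved with these values, and their part in the difference was not tested.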

How the data were processed

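Peak lists of plt345 and WT rice root tips were used. The tools in the submitters' processing notes are MACS2 2.2.7.1, deepTools 3.5.0, Bowtie2 2.4.4 and Trim Galore 0.6.6, with no role stated. No source used here gives the control library, the settings or the genome build. The authors deposited 1 list per sample, so peaks were called per sample, with a p cutoff of 1e-05 in the names of narrow peaks and a broad cutoff of 0.1 in those of H3K27me3 peaks. The deposited columns give other values (starts, ends and summit offsets in bp), a score, a fold enrichment (a ratio to modelled background) and a −log10 p and −log10 q per peak, which are the authors' own and served only to describe, rank or filter peaks within lists.

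Peaks of 2 replicates were merged where they overlapped or abutted, and stretches touched by both lists were kept. Touching meant at least 1 bp. The nearest domain was measured edge to edge. Intervals are 95% Wilson intervals; they cover counting error only. Python 3.11.15 with numpy 2.4.6, pandas 2.3.3, scipy 1.17.1 and matplotlib 3.10.9 was used, and the interval code was tested on simulated data with known answers. Named places are the 6 domains with most sites, the 6 widest, the 6 widest without an EMF2b peak, and the 6 strongest sites on domains and the 6 strongest clear of H3K27me3 peaks; the text gives those that differ most in layout and the range of the rest. Alternatives varied the overlap, the peak threshold, the number of peaks, the outline of domains and the libraries. Members, width classes and lists were chosen with earlier results of these data known. The labels do not say whether replicates are separate plants, so their spread, and p-values drawn from it, may be technical.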

Additional observations from a re-analysis of the deposited data

How the results depend on the processing

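The shares and the ratio among the 11 main results cannot change sign. Over all alternatives, 45 values moved by more than the SD between the 2 plt345 EMF2b libraries. Of the results that are differences, 1 changed sign. The share of domains with an EMF2b peak, plt345 minus WT, was 0.71 points without plt345 EMF2b replicate 1 and −2.63 to 0.71 points over all libraries left out in turn. Without the weakest 25% of EMF2b peaks of each list, 18.0% of domains had a site, 0.438% had 2 or more, 33.6% of sites were on a domain, 48.9% of summits were in the central 50%, 36.9% of summits in domains of 2000 bp or more were in the outer parts, the density ratio of wide to narrow domains was 0.138 and the gap between domains with and without H3K4me3 was 42.2 points. Without the weakest 25% of H3K27me3 peaks, 22.8% of sites were on a domain, the outer share was 35.1%, the H3K4me3 gap 48.2 points, and outside minus inside −2.35 points. With 14851 EMF2b peaks per library domains with a peak differed by −2.59 points, plt345 minus WT, and the other values were 0.651% with 2 or more sites, 32.4% of sites on a domain, 48.3% central, 35.8% outer and a density ratio of 0.120. Joining domains across gaps of up to 1000 bp gave 1.53% with 2 or more, 32.8% on a domain, 43.9% central, 38.3% outer and a ratio of 0.154. Stretches shared by both H3K27me3 libraries gave 0.537%, 30.5%, 46.9%, 39.5% and 0.140 for the same 5 quantities. Sites on a domain were 31.2% with at least 150 bp of overlap and 30.3% with a summit inside.

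Leaving out 1 plt345 library at a time gave 22.4 to 27.9% of domains with a site, 0.649 to 1.98% with 2 or more, 29.8 to 36.3% of sites on a domain, 47.2 to 48.2% of summits central, 35.4 to 37.2% outer, a density ratio of 0.0690 to 0.205, an H3K4me3 gap of 44.8 to 49.2 points and outside minus inside of −1.76 to −0.11 points. With WT libraries included, peaks on a domain differed by −13.6 to −5.55 points and central summits by −5.92 to −3.66 points, plt345 minus WT; the first was −13.6 and −13.1 without WT H3K27me3 replicates 1 and 2. With 1 library of a genotype left out its value has no spread of its own. Same-numbered libraries did not deviate together (r of −0.0040 for EMF2b and −0.0081 for H3K27me3), so numbers were not taken to pair them; with the replicate number as a block the differences stayed at −0.96, −9.46 and −5.02 points, and the smallest exact p for 2 pairs is 0.5. Depth could not be judged from the lists.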

Other observations

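The widest EMF2b sites, a list made after the values were seen, mostly covered much of their H3K27me3 domain. The widest lay on chromosome 9 from 4705559 to 4711268 (5710 bp), on a domain of 5707 bp, with EMF2b folds of only 2.21 and 2.13 and −log10 q of 21.0 and 20.8. The next lay on chromosome 1 from 33534807 to 33539488 (4682 bp), on a domain of 4531 bp. The third was 4060 bp on a domain of 4070 bp, the fourth 3636 bp on 4284 bp and the sixth 3015 bp on 3215 bp. The fifth, 3237 bp, took up part of a domain of 5051 bp that held another site. All 6 of the widest, 3015 to 5710 bp, lay on a domain and carried H3K4me3 of both libraries and a WT PLT5 site. Folds of the 6 widest were 2.13 to 3.64, against 13.4 to 26.1 at the 6 strongest sites on domains, which were 417 to 1401 bp wide. Short sites did not lead by −log10 q over all sites. Its median was 10.0 at under 400 bp and 18.0 at 2000 bp or more.

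Chromosomes differed in how many domains had a site. Among the 12 chromosomes the share was lowest on chromosome 11, at 17.6% of 1601 domains in plt345 and 18.0% of 1863 in WT, and highest on chromosome 1, at 28.4% of 2123 in plt345 and 28.4% of 2543 in WT. H3K4me3 domains were also scarcer on chromosome 11 than on chromosome 1, at 15.6% and 24.8% of plt345 domains. On chromosome 11, 41.1% of plt345 EMF2b sites lay on a domain, the highest share of the 12.

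Of 762 plt345 domains clear of every WT H3K27me3 peak, 110 (14.4%; interval 12.1 to 17.1%) had an EMF2b site, against 23.1% of the 16366 plt345 domains that were also a WT domain. WT domains did not give this order. Of 2412 WT domains clear of every plt345 H3K27me3 peak, 606 (25.1%) had a WT site, against 23.1% of the 16330 also found in plt345. Among plt345 domains without a site, 921 of 13768 (6.69%) had one in WT. Sites clear of every WT EMF2b peak lay on a plt345 domain in 738 of 2926 cases (25.2%), and sites also found in WT in 34.9% of 8825. Stronger sites lay on domains more often, as given above. Among sites clear of plt345 H3K27me3 peaks, 47.4% of the 3846 weakest and 97% of the 300 strongest were also WT sites. The part of site strength in the contrast was not tested.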
